A study of Mus musculus with 24 samples.

Results

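Expression of 9 enzyme genes that build the lipids of the myelin sheath was followed in mouse corpus callosum, the white matter tract joining the cerebral hemispheres. The 9 genes were chosen by name for their place in myelin lipid synthesis. They are Sptlc2, Degs1, Cers2, Elovl1, Elovl7, Fa2h, Ugt8a, Gal3st1 and Aspa, and each was found by its symbol among the 54446 gene IDs of the deposited table. All 9 passed the filter for testing, a mean of at least 0.5 FPKM over all libraries, which 15216 genes passed. FPKM divides a gene's fragments by its length and the library's size, so levels of different genes can be set side by side.

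The 24 libraries were made from polyadenylated RNA and form 4 groups: naive mice given vehicle (n = 4), naive mice given BTKi (n = 4), cuprizone mice given vehicle (n = 8) and cuprizone mice given BTKi (n = 8). Cuprizone is a copper chelator that is toxic to oligodendrocytes, the myelin-forming cells, and is used to strip myelin from this tract. BTKi stands for an inhibitor of Bruton's tyrosine kinase, a signalling enzyme of B cells and of microglia and other myeloid cells, and according to the series' design text it was given once disease had been induced. Strain, age, compound, dose and duration of treatment are not stated in the labels. The labels do not state whether libraries came from separate animals, so p-values reflect only how much these samples vary, and part of that variation may be technical.

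Myelin is unusually rich in galactosylceramide and its sulfated form, sulfatide. The ceramide core is made by joining serine to a fatty acid, acylating the resulting sphingoid base with a very long fatty acid, and adding a double bond. A hydroxyl group may be placed on the fatty acid before galactose, and then sulfate, is attached to the ceramide. Sptlc2 encodes a catalytic subunit of serine palmitoyltransferase, the entry step. Cers2 encodes the ceramide synthase that prefers very long fatty acids, and Degs1 the desaturase that completes ceramide. Elovl1 and Elovl7 encode enzymes that lengthen fatty acids. Fa2h encodes the fatty acid hydroxylase, Ugt8a the ceramide galactosyltransferase and Gal3st1 the sulfotransferase that forms sulfatide. Aspa encodes aspartoacylase, which releases acetate from N-acetylaspartate in oligodendrocytes, and that acetate can feed lipid synthesis.

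All 9 are annotated as protein-coding in GENCODE M21 on GRCm38. Fa2h (ENSMUSG00000033579.16) spans 111345135 to 111393824 on chromosome 8 (minus strand). Ugt8a (ENSMUSG00000032854.12) spans 125865271 to 125938619 on chromosome 3 (minus strand). Gal3st1 (ENSMUSG00000049721.14) spans 3983636 to 3999326 on chromosome 11 (plus strand). Cers2 (ENSMUSG00000015714.11) spans 95314791 to 95323599 on the plus strand of chromosome 3, and Aspa (ENSMUSG00000020774.9) spans 73304992 to 73329596 on the minus strand of chromosome 11. Elovl1 (ENSMUSG00000006390.15) spans 118428093 to 118432953 on the plus strand of chromosome 4, and Elovl7 (ENSMUSG00000021696.9) spans 108214404 to 108285683 on the plus strand of chromosome 13. Sptlc2 (ENSMUSG00000021036.10) spans 87305058 to 87388355 on the minus strand of chromosome 12, and Degs1 (ENSMUSG00000038633.5) spans 182275772 to 182282804 on the minus strand of chromosome 1. Exons of Cers2 overlap those of Setdb1 (mean 9.48 FPKM) and 6330562C20Rik (0.455 FPKM) on the other strand, and exons of Elovl1 overlap those of Cdc20 (0.560 FPKM). No source used here states whether counting used strand, so the values of Cers2 and Elovl1 may hold some reads of these neighbours.

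The sequence before a RefSeq start of 4 of these genes is shown because their changes with cuprizone differ in size: Ugt8a and Aspa fell steeply, Elovl1 fell less and Sptlc2 did not pass the test. Each is the 250 bases before the annotated start from RefSeq (GRCm38.p6), 5′ to 3′ on the gene's strand. The windows are chr3:125938653-125938902 (minus) for Ugt8a, chr11:73324638-73324887 (minus) for Aspa, chr4:118427843-118428092 (plus) for Elovl1 and chr12:87388356-87388605 (minus) for Sptlc2. The Aspa window lies inside the gene's GENCODE span, since that span begins further upstream than the RefSeq start. Capitals mark the motifs searched on both strands, which were GGGCGG (bound by Sp1), the E-boxes CAGATG and CAGCTG, the Sox motifs ACAAAG and ACAATG, the Myrf motifs CTGGCAC and CTGGTAC, and CCAAT.
Ugt8a: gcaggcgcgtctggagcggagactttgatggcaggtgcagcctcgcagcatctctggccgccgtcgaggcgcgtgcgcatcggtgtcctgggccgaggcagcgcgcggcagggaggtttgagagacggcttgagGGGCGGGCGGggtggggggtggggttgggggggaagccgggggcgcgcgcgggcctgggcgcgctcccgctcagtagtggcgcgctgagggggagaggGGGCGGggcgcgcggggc
Aspa: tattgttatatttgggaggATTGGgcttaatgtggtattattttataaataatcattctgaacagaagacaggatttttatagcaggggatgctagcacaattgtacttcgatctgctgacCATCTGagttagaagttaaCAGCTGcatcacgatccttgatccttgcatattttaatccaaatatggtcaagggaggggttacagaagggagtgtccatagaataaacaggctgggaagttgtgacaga
Elovl1: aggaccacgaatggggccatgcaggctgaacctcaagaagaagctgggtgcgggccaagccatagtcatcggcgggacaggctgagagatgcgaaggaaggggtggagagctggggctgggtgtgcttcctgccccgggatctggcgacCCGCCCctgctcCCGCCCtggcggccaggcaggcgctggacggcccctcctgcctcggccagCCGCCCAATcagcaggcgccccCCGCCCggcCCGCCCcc
Sptlc2: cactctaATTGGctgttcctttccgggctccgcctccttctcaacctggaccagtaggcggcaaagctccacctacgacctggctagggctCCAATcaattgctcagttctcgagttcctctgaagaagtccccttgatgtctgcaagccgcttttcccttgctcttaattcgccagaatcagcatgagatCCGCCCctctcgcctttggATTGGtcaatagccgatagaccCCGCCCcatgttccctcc

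The windows of Ugt8a and Aspa, both steeply lower with cuprizone, differed in composition. The Ugt8a window was 76.8% G and C and held GGGCGG 3 times, with 2 of these copies overlapping. The Aspa window was 38.8% G and C and held no GGGCGG, but 1 CAGATG, 1 CAGCTG and 1 CCAAT. The Elovl1 window (72% G and C) held GGGCGG 5 times, 1 of them overlapping its only CCAAT, and the Sptlc2 window (55.2%) held GGGCGG 2 times and CCAAT 3 times. Over 12 windows of the 8 matched genes, GGGCGG occurred in 6, CCAAT in 6, CAGCTG in 3, CAGATG in 1 and ACAATG in 2. Windows 1 and 2 of Gal3st1 overlap and hold the same ACAATG and CCAAT. Counted by gene, GGGCGG occurred in 5, CCAAT in 5, CAGCTG in 3, CAGATG in 1 and ACAATG in 1. ACAAAG and both Myrf motifs occurred in none of the 12. Among 32851 windows of the same length in the table, 32.7% held GGGCGG, 33.9% CCAAT, 13.0% CAGCTG, 14.4% CAGATG, 10.7% ACAATG, 16.5% ACAAAG, 4.19% CTGGCAC and 1.83% CTGGTAC, and the median G and C content was 52.4%. A match describes letters only, and no match says nothing about a factor's binding.

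The tissue carried strong myelin expression, much RNA of neurons and some RNA of neighbouring structures. Summed levels of 8 general neuron markers were 2429 to 2776 FPKM in naive vehicle and 2485 to 2815 FPKM in cuprizone vehicle libraries. For 10 myelin structural genes they were 3516 to 4943 FPKM and 1126 to 1853 FPKM. Depth estimated from the low values ran from 2.65e+07 to 3.10e+07 fragments per library, and cuprizone BTKi replicate 5 was the shallowest at 85.5% of the deepest. Striatal neuron markers, scored as their mean gene-centred log2 level, were highest in naive vehicle replicate 2 (1.60, with 0.02 to 0.74 in the rest of that group). It was also the highest naive vehicle library for 8 of the 9 lipid enzyme genes, the exception being Sptlc2. Cuprizone vehicle replicates 1, 4 and 7 had low choroid plexus marker scores (-2.08, -2.71 and -2.62, against -0.63 to 1.48 in all other libraries). Results are therefore also given without these 4 libraries, a choice made after the data were seen. With 1 sequenced extract per library, fewer oligodendrocytes and less RNA per oligodendrocyte cannot be told apart.

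Cuprizone lowered 8 of the 9 lipid enzyme genes under vehicle, by amounts that differed widely from gene to gene. Fa2h, Ugt8a and Aspa fell most, Elovl7, Gal3st1 and Cers2 fell to 56.9% to 59.4% of their naive vehicle mean, and Elovl1 and Degs1 fell least. Sptlc2, at the entry of the pathway, did not pass the test. The test was limma on log2(FPKM + 0.5), on which scale changes of low genes are understated, with adjusted p under 0.05 over 15216 genes. By this rule 15.0% of all tested genes were called and 4.82% were called lower. In 8 of the 9 genes, all but Sptlc2, no cuprizone vehicle library reached the lowest naive vehicle library, and 2.85% of tested genes were separated in that direction.

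**Figure D1:**
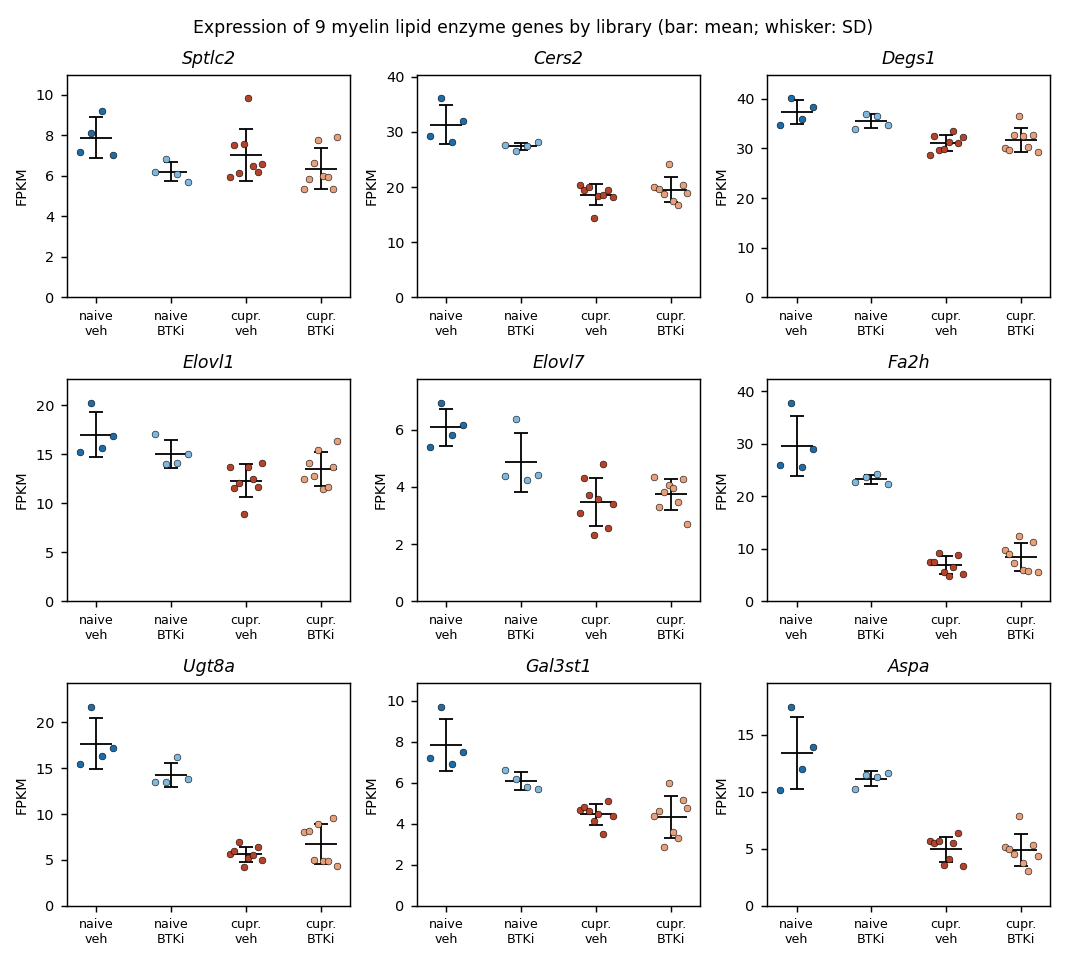
FPKM of each of the 9 genes in each library (y axes, linear, starting at 0) by group on the x axis, where veh is vehicle and cupr. is cuprizone; points are libraries, bars are group means and whiskers 1 SD. In Fa2h the 8 cuprizone vehicle libraries sit between 4.91 and 9.26 FPKM, below the 4 naive vehicle libraries at 25.5 to 37.8 FPKM, while the groups of Sptlc2 overlap.

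Fa2h, the hydroxylase, showed the steepest fall. Its values in the naive vehicle libraries were 25.9, 37.8, 25.5 and 29.1 FPKM for replicates 1 to 4, and in the 8 cuprizone vehicle libraries the lowest, median and highest were 4.91, 7.01 and 9.26 FPKM. The mean went from 29.6 ± 5.73 (SD, n = 4) to 6.91 ± 1.65 FPKM (SD, n = 8), which is 23.4% of the naive mean. The highest cuprizone library lay far below the lowest naive one. The log2 change was -2.03 (SE 0.19), with a limma adjusted p of 4.44e-08.

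Ugt8a, whose product adds the galactose that defines galactosylceramide, came next. Naive vehicle libraries held 15.4, 21.7, 16.3 and 17.2 FPKM, and cuprizone vehicle libraries ran from 4.27 through a median of 5.58 to 7.00 FPKM. The mean of 17.7 ± 2.79 (SD, n = 4) fell to 5.62 ± 0.838 FPKM (SD, n = 8), 31.8% of the naive level. The groups were separated by a wide gap and the spread within each was small beside it. The log2 change was -1.57 (SE 0.17; limma adjusted p = 3.72e-07).

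Gal3st1, which acts directly after Ugt8a to make sulfatide, fell less. Its naive vehicle values were 7.23, 9.70, 6.93 and 7.48 FPKM, and its cuprizone vehicle values ran from 3.48 through a median of 4.55 to 5.12 FPKM. The groups did not overlap, but the gap between them was narrower than for Ugt8a. The mean fell from 7.84 ± 1.27 (SD, n = 4) to 4.45 ± 0.495 FPKM (SD, n = 8), 56.9% of the naive mean. The log2 change was -0.75 (SE 0.13; limma adjusted p = 0.000180).

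Aspa, the enzyme that frees acetate from N-acetylaspartate, also fell steeply. Naive vehicle libraries held 10.1, 17.5, 12.0 and 13.9 FPKM, the widest relative spread of the 9 genes in that group, and cuprizone vehicle libraries ran from 3.46 through 5.48 (median) to 6.36 FPKM. All 8 cuprizone libraries were below all 4 naive ones. The mean fell from 13.4 ± 3.13 (SD, n = 4) to 4.97 ± 1.10 FPKM (SD, n = 8), 37.1% of the naive mean, with a log2 change of -1.35 (SE 0.17) and a limma adjusted p of 4.49e-06.

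Among the ceramide-forming enzymes, Cers2 fell clearly and Degs1 slightly. Cers2 measured 29.3, 36.1, 28.1 and 31.9 FPKM in the naive vehicle libraries and 14.3 to 20.4 FPKM (median 19.1) in the cuprizone vehicle libraries, 59.4% of the naive mean. Its log2 change was -0.74 (SE 0.083; limma adjusted p = 7.71e-07). Degs1 measured 34.7, 40.1, 36.02 and 38.3 FPKM in the naive vehicle libraries and 28.6 to 33.6 FPKM (median 31.2) in the cuprizone vehicle libraries, which is 83.5% of the naive mean. Degs1 was the most tightly measured of the 9, and its groups stayed apart despite the small change. The log2 change of Degs1 was -0.26 (SE 0.053; limma adjusted p = 0.00118).

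Sptlc2 was the 1 gene of the 9 that was not called. Its naive vehicle values were 7.15, 8.12, 9.19 and 7.00 FPKM, and its cuprizone vehicle values ran from 5.91 through 6.55 (median) to 9.82 FPKM. The groups overlapped, and 5 of the 8 cuprizone libraries lay below the lowest naive one. The log2 change was -0.16, with a 95% interval of -0.39 to 0.07 and a limma adjusted p of 0.375. Leaving out 1 library gave -0.23 to -0.09, and Sptlc2 was not called in any of these limma fits. That interval leaves room for a fall larger than the one measured for Degs1.

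Both elongase genes fell, Elovl7 more than Elovl1 by point estimate. Elovl7 measured 5.41, 6.95, 5.83 and 6.16 FPKM in the naive vehicle libraries and 2.33 to 4.79 FPKM (median 3.49) in the cuprizone vehicle libraries, 57.0% of the naive mean. Elovl1 measured 15.3, 20.3, 15.6 and 16.8 FPKM in the naive vehicle libraries and 8.89 to 14.1 FPKM (median 12.3) in the cuprizone vehicle libraries, 72.3% of the naive mean. Neither gene's groups overlapped, though in Elovl1 the nearest libraries were close to each other. The log2 changes were -0.75 (SE 0.14; limma adjusted p = 0.000389) for Elovl7 and -0.45 (SE 0.10; limma adjusted p = 0.00313) for Elovl1.

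The 8 genes were called lower in each of 24 fits that left out 1 library and in each other processing alternative tried. Without naive vehicle replicate 2 and the 3 libraries poor in choroid plexus RNA, the changes were -1.96 for Fa2h, -1.44 for Ugt8a, -1.25 for Aspa, -0.68 for Gal3st1, -0.64 for Cers2, -0.51 for Elovl7, -0.30 for Elovl1 and -0.19 for Degs1 (log2; largest limma adjusted p 0.0460, for Degs1). Elovl1 (adjusted p = 0.0447) and Degs1 came close to the threshold in that limma fit.

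**Figure D2:**
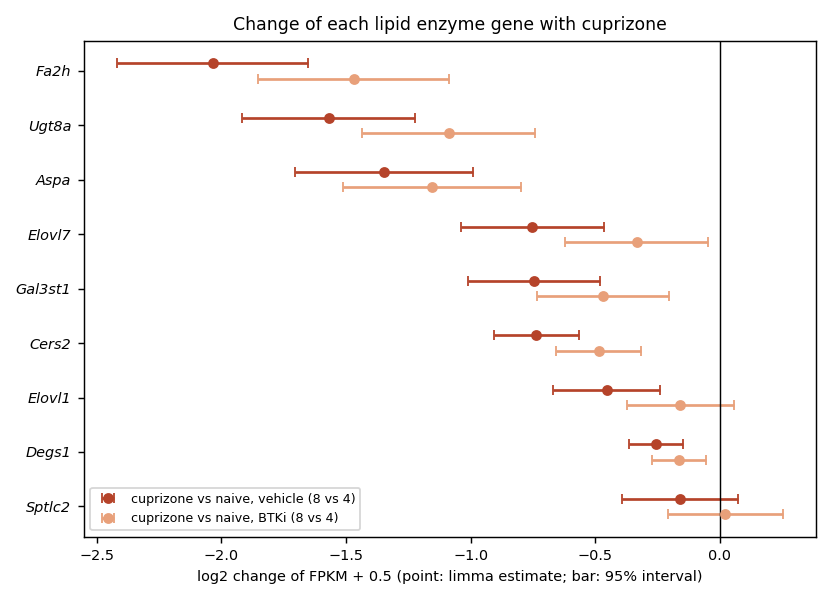
Log2 change of FPKM + 0.5 with cuprizone (x axis) for each gene (y axis), under vehicle in dark red and under BTKi in light orange; points are limma estimates and bars 95% intervals, 8 against 4 libraries each. Under vehicle the changes run from -2.03 for Fa2h to -0.16 for Sptlc2, whose interval crosses 0.

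The unequal falls reordered the levels of the genes. In naive vehicle tissue Degs1 was the highest (37.3 FPKM), followed by Cers2 (31.4), Fa2h (29.6), Ugt8a (17.7), Elovl1 (17.0), Aspa (13.4), Sptlc2 (7.87), Gal3st1 (7.84) and Elovl7 (6.09). The ranges of neighbours in that order overlapped, except between Fa2h and Ugt8a and between Aspa and Sptlc2. In cuprizone vehicle tissue Fa2h stood after Degs1 (31.1 FPKM), Cers2 (18.6), Elovl1 (12.3) and Sptlc2 (7.03), and its range overlapped that of Sptlc2.

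Pairs of genes were compared within libraries, where the scaling of a library cancels, with 2-sided exact permutation tests over 495 splits of 4 and 8 libraries. The smallest p this design allows is 0.00202, and the p-values were adjusted over all 36 pairs. The change with cuprizone differed in 27 pairs. In order of size, Fa2h fell more than Ugt8a (difference 0.46 log2, adjusted exact p = 0.00364), Aspa fell more than Elovl7 (0.59, adjusted exact p = 0.0296) and Cers2 fell more than Elovl1 (0.28, adjusted exact p = 0.00693). The other 5 neighbouring pairs in that order were not called. These were Ugt8a with Aspa (adjusted exact p = 0.0853), Elovl7 with Gal3st1, Gal3st1 with Cers2, Elovl1 with Degs1, and Degs1 with Sptlc2 (adjusted exact p = 0.974, 0.962, 0.115 and 0.529).

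Ratios between the RNA levels of genes along the pathway therefore shifted. Ugt8a stood at 2.26 ± 0.095 times the level of Gal3st1 in naive vehicle libraries (SD, n = 4; range 2.14 to 2.36) and at 1.27 ± 0.18 times in cuprizone vehicle libraries (SD, n = 8; range 1.04 to 1.58). The 2 ranges were far apart, and the exact permutation test of the log2 difference gave an adjusted p of 0.00364. Fa2h stood at 1.67 ± 0.076 times Ugt8a in naive vehicle libraries and at 1.22 ± 0.16 times in cuprizone vehicle libraries (SD, n = 4 and 8), again without overlap. Cers2 stood at 1.85 ± 0.069 times Elovl1 in naive vehicle libraries and at 1.53 ± 0.15 times in cuprizone vehicle libraries (SD, n = 4 and 8).

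**Figure D3:**
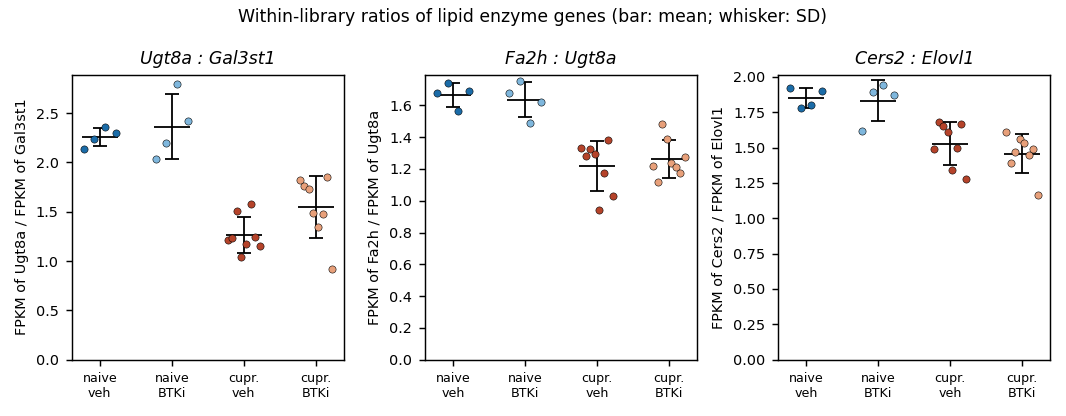
Ratio of the FPKM values of 2 genes within each library (y axes, linear, starting at 0) by group; points are libraries, bars means and whiskers 1 SD. The ratio of Ugt8a to Gal3st1 lies between 2.14 and 2.36 in naive vehicle libraries and between 1.04 and 1.58 in cuprizone vehicle libraries.

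The lipid enzyme genes were set beside 10 genes of myelin structural proteins, all of which fell under vehicle (median log2 change -1.42). Among them were Mal (-2.30), a myelin proteolipid, and Mog (-1.68) and Opalin (-1.65), both oligodendrocyte membrane proteins. Against the mean of the 10 in the same libraries, Fa2h fell more, by 0.58 log2 (adjusted exact permutation p = 0.00303 over 9 tests). Ugt8a (-0.12) and Aspa (0.11) did not differ beyond the spread (adjusted exact permutation p = 0.175 and 0.329). The change of the other 6 was smaller than that of the structural genes, by 0.70 (Elovl7, adjusted exact p = 0.0104), 0.71 (Gal3st1), 0.72 (Cers2), 1.00 (Elovl1), 1.199 (Degs1) and 1.29 log2 (Sptlc2; adjusted exact p = 0.00303 for these last 5).

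Markers of other cells moved in the same comparison. Of 8 microglia markers 6 rose, with a summed level of 125 to 153 FPKM in naive vehicle and 193 to 490 FPKM in cuprizone vehicle libraries. Of 8 astrocyte markers 4 rose and 1 fell. All 8 striatal neuron markers fell under vehicle, from a summed 237 to 687 FPKM to 132 to 241 FPKM, while none of 8 general neuron markers was called. The 687 FPKM was naive vehicle replicate 2 alone, with 237 to 392.5 FPKM in the rest of that group. Without that library 4 of the 8 striatal markers were called lower, and without it and the 3 libraries poor in choroid plexus RNA 1 was. None of 6 choroid plexus markers was called, with summed levels of 1150 to 1828 FPKM in naive vehicle and 29.9 to 1518 FPKM in cuprizone vehicle libraries. Of 10 transcription factors of the oligodendrocyte lineage 6 fell, among them Nkx6-2 (-0.85), Sox10 (-0.53), Myrf (-0.44) and Olig1 (-0.43). Myrf was not called by limma without naive vehicle replicate 2 (adjusted p = 0.116). None of 6 precursor markers was called, and their summed level was 60.4 to 70.0 FPKM in naive and 60.5 to 69.4 FPKM in cuprizone vehicle libraries. The part of these shifts in the lipid enzyme result was not tested.

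Most other genes of the same pathways were not called. Of 97 genes in 7 lists, 92 were tested under vehicle, and 8 rose, 13 fell and 71 were not called. Over all tested genes 15.0% were called and 4.82% were called lower. Genes of these lists were thus called lower more often than genes at large, a difference that was not tested. The median log2 change lay between -0.16 and 0.04 in each list, against -0.75 for the 9 enzyme genes and 0.03 for all genes. Single genes moved by more than Degs1 (-0.26) did, among them Hacd4 (0.55), Acer2 (0.51), Scd1 (-0.44), Sptssb (-0.40) and Smpd2 (-0.34). Whether the lists differ from the 9 genes was not tested. Without naive vehicle replicate 2 the number that fell was 7, without that library and the 3 libraries poor in choroid plexus RNA it was 6, and the number that rose was 5 without naive vehicle replicate 1 and 4 without replicate 4.

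In sphingoid base and ceramide synthesis, 1 of 12 tested genes fell and none rose. The gene that fell was Sptssb (-0.40, SE 0.11; limma adjusted p = 0.0140), a small subunit of serine palmitoyltransferase, and it lost its call in 3 of 35 alternatives. Sptlc1, the obligate partner of Sptlc2, was measured at 8.74 ± 0.202 FPKM in naive vehicle and 8.54 ± 0.328 FPKM in cuprizone vehicle libraries (SD, n = 4 and 8; limma adjusted p = 0.674). Other ceramide synthases were not called: Cers1, which makes ceramides with shorter acyl chains and is prominent in neurons, had a log2 change of 0.03 (SE 0.049), and Cers5 of 0.00 (SE 0.044).

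In fatty acid synthesis, elongation and desaturation, 7 of 23 tested genes fell and 1 rose. The stearoyl-CoA desaturases Scd1 (-0.44, SE 0.067), Scd3 (-0.35, SE 0.094) and Scd2 (-0.24, SE 0.043) fell, and so did Elovl6 (-0.26, SE 0.063), which elongates palmitate. Scd1 and Scd2 were called in all 35 alternatives, Scd3 was not called in 2 of 34 and Elovl6 not in 1 of 35. The gene that rose was Hacd4 (0.55, SE 0.12; limma adjusted p = 0.00230), a dehydratase of the elongation cycle, at only 0.412 FPKM in naive vehicle and 0.858 FPKM in cuprizone vehicle libraries. Elovl5, the elongase of polyunsaturated fatty acids, had a log2 change of 0.04 (SE 0.046).

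In breakdown of galactolipids and ceramide, 3 of 14 tested genes rose and 2 fell. Acer2, an alkaline ceramidase (0.51, SE 0.081), Gm2a, the activator protein of ganglioside breakdown (0.25, SE 0.065), and Asah1, the acid ceramidase (0.23, SE 0.060), rose. Smpd2, a neutral sphingomyelinase (-0.34, SE 0.093), and Asah2, a neutral ceramidase (-0.27, SE 0.085), fell. Asah2 lost its call in 10 of 35 alternatives. Enzymes that degrade the myelin galactolipids themselves were not called: Galc, the galactosylceramidase, changed by 0.03 (SE 0.049), and Arsa, which removes the sulfate of sulfatide, by -0.11 (SE 0.070).

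The remaining lists held few calls. In the list around N-acetylaspartate and acetate, 2 of 9 genes rose and 2 fell. Acly (-0.21, SE 0.047) and Acss2 (-0.20, SE 0.044), which make acetyl-CoA from citrate and from acetate, fell. Rimklb, which joins glutamate to N-acetylaspartate (0.27, SE 0.073), and Slc13a3, a dicarboxylate transporter (0.20, SE 0.067; not called in 15 of 35 alternatives), rose. Nat8l, the N-acetylaspartate synthase, changed by 0.05 (SE 0.056). In other uses of ceramide 1 of 12 genes rose and 1 fell. Sgms1, a sphingomyelin synthase, rose (0.15, SE 0.050, not called in 23 of 35 alternatives). St8sia3, a ganglioside sialyltransferase, fell (-0.27, SE 0.084) and was not called in 9 of 35 alternatives. Its limma adjusted p was 0.484 without naive vehicle replicate 2 and the 3 libraries poor in choroid plexus RNA. None of 10 genes for sugar and sulfate donors was called.

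**Figure D4:**
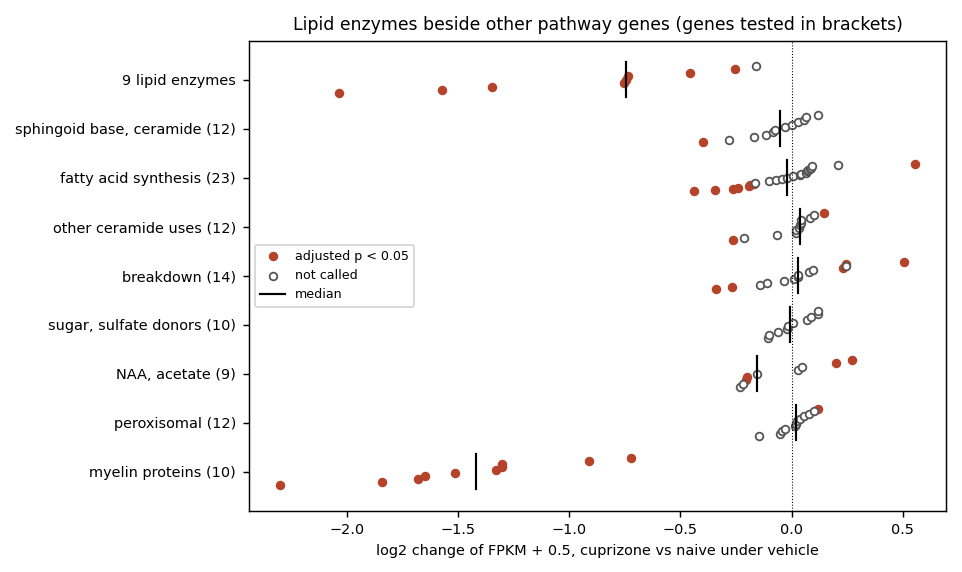
Log2 change of FPKM + 0.5 with cuprizone under vehicle (x axis) for the 9 lipid enzyme genes, 7 lists of other pathway genes and 10 myelin protein genes (y axis, with the number tested); filled points passed limma's adjusted p of 0.05, open points did not, and vertical lines are medians. The medians are -0.75 for the 9 genes and -1.42 for the myelin proteins, and lie between -0.16 and 0.04 in the other lists.

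With BTKi present in both groups, cuprizone lowered 5 of the 9 genes: Fa2h, Aspa, Ugt8a, Cers2 and Gal3st1. In this comparison 7.87% of all tested genes were called and 1.77% were called lower. Fa2h measured 22.8, 23.8, 24.2 and 22.3 FPKM in naive BTKi libraries and 5.54 to 12.4 FPKM (median 8.24) in cuprizone BTKi libraries, with a log2 change of -1.47 (SE 0.19) and a limma adjusted p of 9.18e-06. Ugt8a measured 13.6, 13.5, 16.2 and 13.8 FPKM in naive BTKi libraries and 4.36 to 9.57 FPKM (median 6.48) in cuprizone BTKi libraries, with a log2 change of -1.09 (SE 0.17) and a limma adjusted p of 9.09e-05. For both genes the cuprizone libraries stayed below all naive ones while spreading over a wide range.

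Aspa and Cers2 were also separated between naive and cuprizone mice given BTKi. Aspa measured 10.2, 11.5, 11.3 and 11.6 FPKM in naive BTKi and 3.04 to 7.86 FPKM (median 4.76) in cuprizone BTKi libraries, with a log2 change of -1.15 (SE 0.17) and a limma adjusted p of 6.35e-05. Cers2 measured 27.6, 26.5, 27.4 and 28.1 FPKM in naive BTKi and 16.8 to 24.1 FPKM (median 19.3) in cuprizone BTKi libraries, with a log2 change of -0.49 (SE 0.083) and a limma adjusted p of 0.000267. These 2 genes, Fa2h and Ugt8a were the 4 whose groups did not overlap under BTKi, where 1.47% of tested genes were separated in that direction.

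Gal3st1 fell under BTKi with less certainty. Its naive BTKi values were 6.64, 6.18, 5.81 and 5.69 FPKM and its cuprizone BTKi values ran from 2.88 through 4.51 (median) to 6.01 FPKM, so that 1 cuprizone library lay inside the naive range. The log2 change was -0.47 (SE 0.13; limma adjusted p = 0.0201). The limma adjusted p rose to 0.0794 without naive BTKi replicate 1 and to 0.0579 without naive BTKi replicate 2, and the call was also lost with no filter on low genes and with only the compared groups in the fit.

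The other 4 genes were not called with cuprizone under BTKi. The log2 changes were -0.33 for Elovl7 (95% interval -0.62 to -0.05; limma adjusted p = 0.177), -0.16 for Elovl1 (-0.37 to 0.05; limma adjusted p = 0.454), -0.16 for Degs1 (-0.27 to -0.06; limma adjusted p = 0.0556) and 0.02 for Sptlc2 (-0.21 to 0.25; limma adjusted p = 0.947). Degs1 lay at the threshold. Its limma adjusted p was 0.00933 without cuprizone BTKi replicate 4, its highest library at 36.6 FPKM, and 0.0124 under median ratio scaling. The sign for Sptlc2 changed to -0.004 under median ratio scaling and -0.02 under quantile normalization.

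Surrounding pathway genes gave 4 calls higher and 6 lower of 92 in this comparison. Over all tested genes 7.87% were called and 1.77% were called lower. Those higher were Gm2a (0.31), Fads2 (0.17) and Elovl5 (0.16), a desaturase and an elongase of polyunsaturated fatty acids, and Acsl6 (0.12), an acyl-CoA synthetase. The count higher was between 1 and 7, and the count lower between 3 and 9, over the alternatives tried, and 6 of the 24 libraries moved the first count to 2 or fewer when left out (naive BTKi replicates 2, 3 and 4, cuprizone BTKi replicates 1, 7 and 8). Leaving out naive BTKi replicate 2, 3 or 4 lowered the second count to 3. Those lower were Scd1 (-0.28, SE 0.067; limma adjusted p = 0.00708), Acss2 (-0.23, SE 0.044; limma adjusted p = 0.000987), Tecr (-0.19) and Hacd3 (-0.11), both of the elongation cycle, Acsl1 (-0.19), an acyl-CoA synthetase, and Papss1 (-0.14), which makes the sulfate donor. Of 35 alternatives Hacd3 lost its call in 23, Elovl5 in 11, Fads2 in 9, Acsl6 in 7, Acsl1 in 6 and Papss1 in 5. Gm2a, Scd1, Acss2 and Tecr were called in all 35. Of the 3 stearoyl-CoA desaturase genes that fell under vehicle, Scd2 (-0.11, limma adjusted p = 0.156) and Scd3 (-0.17, limma adjusted p = 0.359) were not called here.

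Among cuprizone mice, BTKi changed none of the 9 genes past the threshold. In that comparison limma called 27 genes, 0.177% of those tested. None of the 9 reached an unadjusted p of 0.05, which 1338 of the 15216 genes tested did. The largest difference was in Fa2h, 8.42 ± 2.62 FPKM with BTKi against 6.91 ± 1.65 FPKM with vehicle (SD, n = 8 each), a log2 difference of 0.24 (95% interval -0.07 to 0.56; limma adjusted p = 0.676). The difference for Ugt8a was 0.19 (-0.09 to 0.47), with means of 6.71 ± 2.16 and 5.62 ± 0.838 FPKM (SD, n = 8 each). The groups overlapped in all 9 genes, and 0.131% of tested genes were separated. The remaining log2 differences were 0.13 for Elovl1, 0.11 for Elovl7, 0.07 for Cers2, 0.02 for Degs1, -0.04 for Aspa, -0.06 for Gal3st1 and -0.13 for Sptlc2. Without the 3 vehicle libraries poor in choroid plexus RNA, Elovl7 and Degs1 changed sign, to -0.08 and -0.01.

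The cuprizone BTKi libraries were spread unevenly in Ugt8a and Fa2h. Replicates 1, 2, 4 and 7 held 8.00, 8.16, 8.95 and 9.57 FPKM of Ugt8a, above the highest cuprizone vehicle library (7.00 FPKM). Replicates 3, 5, 6 and 8 held 4.96, 4.86, 4.84 and 4.36 FPKM, inside the vehicle range. The same 4 replicates were the highest for Fa2h, with 9.73, 9.11, 12.4 and 11.3 FPKM against 5.54 to 7.37 FPKM in the others. In Fa2h 3 of them exceeded the highest vehicle library (9.26 FPKM). Markers of the same cells moved with them. The summed level of the 10 myelin structural genes was 2050, 1822, 2682 and 2120 FPKM in replicates 1, 2, 4 and 7 and 1262 to 1454 FPKM in the others, and that of the 10 oligodendrocyte transcription factors was 128 to 159 FPKM against 100 to 121 FPKM. The part of these levels in the spread of the enzyme genes was not tested. The labels give nothing that separates these replicates.

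In naive mice BTKi changed none of the 9 genes past the threshold either, with 33 genes called by limma (0.217% of those tested). All 9 point estimates were below 0, from -0.33 for Gal3st1 to -0.07 for Degs1, with a median of -0.29 against -0.02 for all genes. Of the 15216 genes tested, 1922 had an unadjusted limma p under 0.05 in this comparison. Among the 9 genes these were Sptlc2 (0.0223; limma adjusted p = 0.300) and Gal3st1 (0.0345; limma adjusted p = 0.348). Sptlc2 measured 6.16, 6.83, 6.11 and 5.67 FPKM with BTKi against 7.15, 8.12, 9.19 and 7.00 FPKM with vehicle, so the groups did not overlap. Groups were also separated in Fa2h and Gal3st1, 3 of the 9 genes, where 4.93% of tested genes were separated in that direction. Without naive vehicle replicate 2, the library highest in striatal markers, the log2 difference of Fa2h moved from -0.32 to -0.20 and that of Aspa from -0.23 to -0.10, and the 9 estimates had a median of -0.19. Estimates below 0 were also found for all 8 striatal neuron markers (median -0.48), all 6 choroid plexus markers (-0.44), all 10 myelin structural genes (-0.32) and all 10 oligodendrocyte transcription factors (-0.27), none of them called. Without that library the medians were -0.20, -0.33, -0.21 and -0.20. The part of these shifts in the estimates of the 9 genes was not tested.

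**Figure D5:**
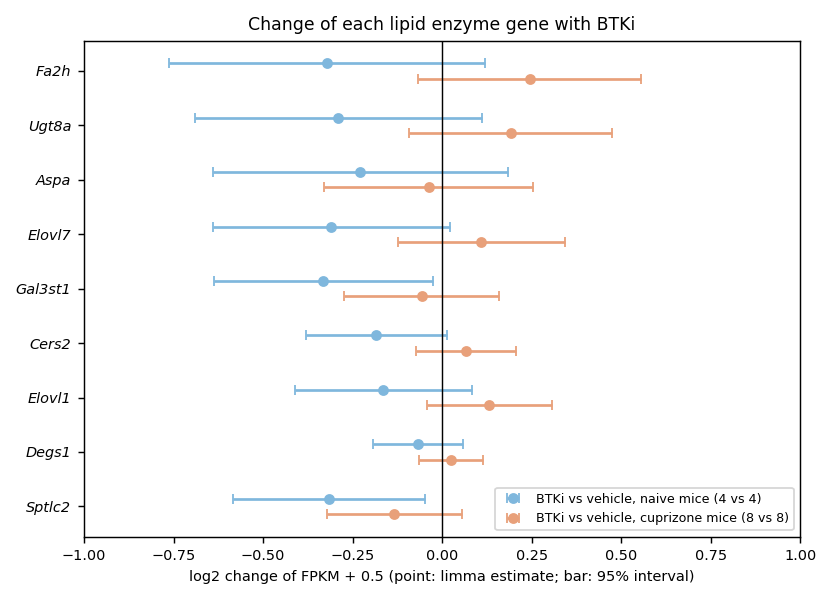
Log2 difference of FPKM + 0.5, BTKi minus vehicle (x axis), for each gene (y axis) in naive mice (blue, 4 against 4 libraries) and cuprizone mice (orange, 8 against 8); points are limma estimates and bars 95% intervals. None of the differences passed the adjusted threshold, with estimates of -0.33 to -0.07 in naive mice and -0.13 to 0.24 in cuprizone mice.

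The difference between the BTKi effects in cuprizone and in naive mice was tested as an interaction, and 0 of 9 genes passed (19 genes, 0.125%, passed in all). Every estimate was above 0, from 0.09 for Degs1 to 0.57 for Fa2h (95% interval 0.02 to 1.11; limma adjusted p = 0.49997). Of the 15216 genes tested, 1482 had an unadjusted limma p under 0.05 for this term. Among the 9 genes these were Fa2h (0.0412), Cers2 (0.0420) and Elovl7 (0.0430). Without naive vehicle replicate 2 these unadjusted values were 0.114, 0.133 and 0.0964, so none of the 3 stayed under 0.05. In the same fit the estimate of Aspa moved from 0.19 to 0.06 and that of Degs1 to 0.06. Without that library and the 3 poor in choroid plexus RNA, Elovl7 moved from 0.42 to 0.17 and Degs1 to 0.02. The term was also above 0 for all 8 striatal neuron markers (median 0.62), all 6 choroid plexus markers (1.09), all 10 myelin structural genes (0.52) and all 10 oligodendrocyte transcription factors (0.28), none of them called, and their part in the 9 estimates was not tested. The same term compares the cuprizone change under BTKi with that under vehicle, so the 5 genes called under BTKi and the 8 called under vehicle do not amount to a tested difference. The comparisons share control libraries: the naive vehicle group enters both the vehicle cuprizone change and the naive BTKi difference.

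Within the cuprizone mice some of the enzyme genes varied together from library to library. Group means were subtracted, and Pearson and Spearman coefficients over the 16 libraries were tested with 100000 permutations within groups, adjusted over 36 pairs. Of these, 8 pairs were called by Pearson's r, all positive, 8 by Spearman's rho and 7 by both. Fa2h and Ugt8a gave r = 0.91 and rho = 0.94 (permutation p = 1e-05, the smallest these permutations can give; adjusted p = 0.00018 for each), and r = 0.88 without the 2 libraries farthest from the median of Fa2h. In the 8 vehicle libraries alone r was 0.86. In the 8 BTKi libraries r was 0.96, and Ugt8a left a gap between 4.96 and 8.00 FPKM there. The relation on either side of the gap was not tested.

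Cers2 and Aspa gave r = 0.87 and rho = 0.90 (adjusted permutation p = 0.00018 for each; r = 0.86 without the 2 farthest libraries, 0.73 within vehicle and 0.99 within BTKi). Fa2h with Aspa gave r = 0.87 and rho = 0.80 (adjusted permutation p = 0.0006 and 0.00072; r = 0.88 without the 2 farthest). Fa2h, Ugt8a, Aspa and Cers2 were thus linked in all 6 of their pairs, the other 3 with r between 0.73 and 0.74. Gal3st1 joined them through Cers2 (r = 0.64, rho = 0.70; adjusted permutation p = 0.0381 and 0.0138; r = 0.42 within vehicle and 0.81 within BTKi). Gal3st1 with Aspa was called by rho only (r = 0.62, rho = 0.61; adjusted permutation p = 0.0572 and 0.0387). Cers2 with Elovl1 (r = 0.69, adjusted permutation p = 0.0481) was not called by rho (0.40, adjusted permutation p = 0.268) and fell to r = 0.38 without the 2 farthest libraries, so it rests on those. Sptlc2 was in no called pair, and its r with Fa2h was -0.40 (rho = -0.53; adjusted permutation p = 0.309 and 0.134).

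Across all 24 libraries, the genes whose levels most resembled each enzyme gene were listed by Pearson's r of log2(FPKM + 0.5), as a description in which the group differences are shared by all. Closest to Fa2h was Mal (r = 0.98), a proteolipid that binds galactolipid-rich membranes, followed by Prr18 and Efhd1. Closest to Ugt8a were Tspan2 and Cldn11 (r = 0.98 each), a tetraspanin and the tight junction claudin of myelin. Cers2 was closest to Sec14l5 and Aspa to Galnt6 (r = 0.98 each). Gal3st1 was closest to Arhgef10 (0.94), Elovl7 to Slc12a2 (0.92), a sodium, potassium and chloride cotransporter, and Degs1 to Sccpdh (0.91). The nearest genes were less close for Elovl1 (Tprn, 0.87, with Gltp, the cytosolic glycolipid transfer protein, among its top 3) and for Sptlc2 (Zc3h6, 0.77). Under vehicle Mal changed by -2.30, Tspan2 by -1.21 and Cldn11 by -1.51 (log2).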

How the data were processed

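The authors deposited 1 table of FPKM values for 54446 versioned Ensembl gene IDs in 24 libraries. Per the labels' protocols, a Qiagen RNeasy Micro kit was used for extraction and a TruSeq stranded mRNA kit for the libraries. Aligner, counting tool, strand setting, build and annotation were not given in the sources used here. GENCODE M21, from which coordinates were taken, holds 53229 of the IDs with the same version, and 54409 IDs had a symbol. Samples were grouped by their labels, and all libraries entered the tests.

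Genes with a mean of at least 0.5 FPKM (15216) were fitted as log2(FPKM + 0.5) by limma (version 3.58.1, trend setting, R 4.3.3) in 1 model over the 4 groups without covariates. The Benjamini-Hochberg threshold was 0.05 over all genes tested. Within-library differences were tested with exact permutations, and correlations with 100000 permutations, in Python 3.11.15 with scipy 1.17.1 and numpy 2.4.6. The scripts were tested on simulated data. FPKM is no count, so no count model was run. Total FPKM was 462521 to 496350 per library and 14930 to 15435 genes reached 0.5 FPKM. Relative depth was estimated from 1573 low genes whose values above 0 lay within a ratio of 1.4, each such value taken as 1 fragment. At each gene's lowest FPKM and the depth of an average library, the 9 genes had about 178 (Gal3st1) to 2245 (Degs1) fragments. Fragment counting limits the lower ones most. Replicate pairs of a group differed by a log2 spread of 0.123 to 0.222, so none was taken for a repeated deposit.

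All 9 genes are named in every comparison. From the 7 pathway lists, the myelin protein list and the transcription factor list, genes called with cuprizone under vehicle are named, at most 4 in each direction by size (a few results are not reported here), and 3 genes are ranked for likeness to each enzyme gene. Sptlc1, Cers1, Cers5, Elovl5, Nat8l, Galc and Arsa were named for their role after their values were seen, as were the pathway genes called under BTKi (4 higher, 6 lower). The 9 genes, the lists and the tests were chosen with earlier results of these data known. Alternatives were other pseudocounts (0.1 and 1), no filter or a filter at 1 FPKM, median ratio scaling, quantile normalization, scaling to an equal library sum, array weights, only the compared groups, the replicate number as a block, and leaving out libraries. Upstream sequences are from RefSeq (GRCm38.p6), in which 8 of the 9 genes were matched. The Fa2h window was not used here.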

Additional observations from a re-analysis of the deposited data

Results flagged for a closer look

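In 36 combinations of gene and group, the highest or lowest library was compared with the others by its gap to the nearest library relative to the whole range (Dixon's 95% limits, which chance passes in about 1 of 20 groups). In 6 combinations 1 library stood apart. Naive BTKi replicate 3 was high for Ugt8a (16.2 FPKM), and naive BTKi replicate 2 for Elovl7 (6.39 FPKM). Cuprizone vehicle replicate 4, among the 3 libraries lowest in choroid plexus markers, was low for Cers2 (14.3 FPKM). Cuprizone vehicle replicate 5 was high for Sptlc2 (9.82 FPKM). Cuprizone BTKi replicate 4 was high for both Aspa (7.86 FPKM) and Degs1 (36.6 FPKM). No cause was tested.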

How the results depend on the processing

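The count of the 9 genes called with cuprizone under vehicle was 8 in all alternatives and leave-one-out fits. Under BTKi it was 4 to 6, moved by Gal3st1 and Degs1. It was 0 in the BTKi comparisons and their difference in every fit. Scaling moved the split of all genes called under vehicle from 1555 higher and 733 lower to 1229 and 978 (median ratio) or 1205 and 1072 (quantile). For Sptlc2 with cuprizone under BTKi the sign reversed under median ratio scaling (-0.0041) and quantile normalization (-0.024), and leaving out 1 library gave -0.022 to 0.067. Without the 3 libraries poor in choroid plexus RNA, with or without naive vehicle replicate 2, the BTKi difference in cuprizone mice was -0.0096 for Degs1 and -0.076 for Elovl7. Leaving out 1 library, this difference ranged from -0.13 to 0.043 for Aspa, -0.0049 to 0.040 for Degs1 and -0.12 to 0.013 for Gal3st1. The cause was not tested.

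Counts over all genes were less stable for BTKi. In cuprizone mice 27 genes were called, 16 without the filter and 11 without the 3 choroid-poor libraries (11 also without naive vehicle replicate 2), with a leave-one-out range of 14 to 34. In naive mice 33 were called, 21 without the filter, 19 scaled to an equal library sum, 145 with array weights, 3 with only the compared groups and 7 without the 4 doubted libraries (leave-one-out 7 to 41). For the difference of the BTKi effects 19 were called, 8 without the 4 doubted libraries (leave-one-out 8 to 23). Replicate numbers were not taken as pairs. Deviations of same-numbered replicates of different groups correlated with r from -0.27 to 0.32. Differently numbered replicates were not compared, so these values cannot decide whether the numbers mark pairs. With the replicate block 9 genes were called for that difference and 1859 with cuprizone under vehicle (2288 without it), while 8 of the 9 enzyme genes remained called. Pairs of unequal change numbered 23 to 28 leaving out 1 library (27 in all) and called correlations 6 to 10 (8 in all). Depth limits Gal3st1 and Elovl7 most, and with 4 naive libraries per treatment small differences are not detectable.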
